A study of Mus musculus with 53 samples.

Results

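The distal pluripotency enhancers of 2iLIF and NACL culture are regions of the mouse genome that carried both enhancer marks in embryonic stem cells (ESCs) of each medium, did not overlap an enhancer of naive extra-embryonic endoderm (nEnd), and lay away from start sites. An enhancer of a population was a merged H3K27ac region with peaks of both its libraries that overlapped, by at least 1 bp, a merged H3K4me1 region with peaks of both its libraries. This gave 27880 enhancers in 2iLIF, 15586 in NACL and 7636 in nEnd. Overlapping 2iLIF and NACL enhancers merged into 10889 regions, of which 3603 overlapped an nEnd enhancer and 7286 did not. Of the latter, 4880 lay 1 kb or more from every GENCODE start site and are called members here. They are 4880 of 14647 regions in the network of pluripotency, common (also nEnd) and primitive endoderm (PrE, nEnd only) enhancers. The members were thus selected on the peaks of both marks in 2iLIF, NACL and nEnd, and those peaks are given below as descriptions without a test.

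Enhancers are stretches of DNA that bind transcription factors and raise the transcription of genes at a distance. H3K4me1 marks enhancers that are active or primed, while H3K27ac marks those that are active. SOX2 is an HMG box factor that binds DNA together with OCT4 and maintains the epiblast and ESCs, and GATA6 is the zinc finger factor that drives PrE, the sister lineage of the epiblast in the blastocyst. In the inner cell mass both factors can be present in the same cell before the lineages separate.

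Chromatin was profiled by CUT&RUN, in which an antibody directs a nuclease to its target and the DNA that is cut free is sequenced. All cells were SGGC ESCs, a reporter line with GFP fused to endogenous SOX2 and mCherry fused to endogenous GATA6, as clones B9 and B12. The groups were 2iLIF (MEK inhibitor PD0325901, CHIR99021 and LIF), NACL (Activin A, CHIR99021 and LIF in N2B27), KOSR (knockout serum replacement), from which SOX2+ and SOX2+ GATA6+ (DP) cells were sorted, and nEnd, an endoderm culture derived from the ESCs in RACL medium. Of 35 libraries with a peak list, 33 could be assigned to a group: 10 for SOX2, 5 for GATA6 and 18 for the marks. Every KOSR library came from clone B12, both nEnd H3K4me1 libraries came from clone B9, and DP cells had 1 library of each mark, so the KOSR groups describe 1 clone and the DP marks have no replicate. The files do not give the read depth. SOX2 lists held from 1378 to 29623 peaks, and this limits how many members a library can show.

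The sequences under SOX2 at the members of 7 pluripotency genes are printed for the DNA at the centre of the peaks. For each gene of the core and naive factor lists that was the nearest protein-coding gene of a member, the member with SOX2 in the most libraries was taken, and 7 of the 8 genes with the most libraries are shown. Each run is the 150 bp of the plus strand of GRCm38 around the highest-ranked SOX2 maximum. Capitals mark the strings searched on both strands. The SOX strings were CATTGT, the core preferred by SOX factors, and its common variant CTTTGT. The octamer of OCT factors was ATGCAAAT, and a composite of a SOX and an OCT site was searched as well. TCAAGGTCA stood for ESRRB and CCACACCC for KLF factors. The string for GATA factors was AGATAA.
Sox2, chr3:34761423-34761572: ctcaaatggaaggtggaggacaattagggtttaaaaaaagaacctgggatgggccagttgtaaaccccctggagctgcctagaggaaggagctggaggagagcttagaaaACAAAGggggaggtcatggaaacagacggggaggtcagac
Zfp281, chr1:136728079-136728228: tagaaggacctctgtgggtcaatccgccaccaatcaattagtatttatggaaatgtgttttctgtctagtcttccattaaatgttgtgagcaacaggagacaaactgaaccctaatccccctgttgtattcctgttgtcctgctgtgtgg
Prdm14, chr1:13085066-13085215: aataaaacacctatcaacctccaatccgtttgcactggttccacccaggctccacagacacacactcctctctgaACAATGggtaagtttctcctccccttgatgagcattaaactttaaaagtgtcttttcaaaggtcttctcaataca
Gbx2, chr1:89876499-89876648: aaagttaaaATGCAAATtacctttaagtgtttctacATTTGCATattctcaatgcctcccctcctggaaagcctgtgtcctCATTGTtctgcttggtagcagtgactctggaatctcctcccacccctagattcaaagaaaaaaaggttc
Zfp42, chr8:43320750-43320899: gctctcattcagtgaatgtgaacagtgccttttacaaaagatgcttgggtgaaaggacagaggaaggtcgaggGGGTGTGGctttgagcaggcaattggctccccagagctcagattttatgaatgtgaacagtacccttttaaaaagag
Klf5, chr14:99510266-99510415: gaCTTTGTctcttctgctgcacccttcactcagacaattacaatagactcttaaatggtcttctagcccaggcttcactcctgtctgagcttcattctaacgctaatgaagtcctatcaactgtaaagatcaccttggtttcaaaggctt
Nr5a2, chr1:136980657-136980806: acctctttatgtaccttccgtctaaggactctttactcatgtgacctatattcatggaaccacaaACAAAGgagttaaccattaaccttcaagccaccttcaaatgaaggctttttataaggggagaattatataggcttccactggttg
A SOX string stood in 5 of the 7 windows, near the Sox2, Prdm14, Gbx2, Klf5 and Nr5a2 genes. The Gbx2 window also held 2 octamers, the Zfp42 window held only a KLF string, and the Zfp281 window held none of the strings.

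The members had a median width of 5193 bp, with 5% under 2066 bp and 5% over 15195 bp, and covered 31.5 Mb. The widest, of 58135 bp, lay nearest to Nfib, a transcription factor gene. The middle of a member lay in an intron of a protein-coding gene in 47.0% of cases, between genes in 50.3% and in an exon in 2.70%. Their median distance was 11784 bp to any start site and 22158 bp to that of a protein-coding gene, and 727 members lay over 100 kb from the latter. The 271 pluripotency enhancers under 1 kb from a start site without covering it had a median width of 5127 bp and SOX2 in any library in 53.9%, and the 290 members under 2 kb from one had a median width of 4400 bp and SOX2 in 52.4%. The 2135 that covered a start site were wider, with a median of 9459 bp, and 65.0% had SOX2. Among members 50 kb or more from a start site, 72.7% of 516 had SOX2.

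Of the members of core and naive factor genes, the widest beyond Sox2 held the most SOX2 peaks, 49 over the 10 libraries. It spans chr3:34742327-34767825, between genes and 91922 bp downstream of Sox2, in the stretch where a distal enhancer is known to drive Sox2 transcription in ESCs. These peaks formed 8 separate sites. The strongest SOX2 peak of the member stood at percentile 91.7 and 88.7 of all peaks of the 2iLIF libraries B9 and B12, where 100 is the strongest peak of a library by total signal. It stood at 97.8 and 95.3 in NACL B9 and B12, and at 93.2, 95.4 and 86.8 in SOX2+ A, A1 and B. In DP A, A1 and B it stood at 53.8, 75.5 and 18. A percentile depends on the length of a library's list, which was 1378 to 5320 SOX2 peaks in DP and 8203 to 29623 in the other 7 libraries (called pluripotent here), so percentiles of different libraries are given side by side and not compared. GATA6 peaks of the DP libraries A, A1 and B lay in the same member, at percentile 72.8, 70.6 and 56.2. SOX2 and GATA6 shared a position there: a SOX2 peak of DP A ran from 94.9 to 95.2 kb downstream of the start site and a GATA6 peak of DP A from 94.8 to 95.1 kb. The SOX2 peak of DP A from 107.56 to 107.76 kb overlapped a SOX2 peak of each of the other 9 libraries and no GATA6 peak of DP.

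**Figure D1:**
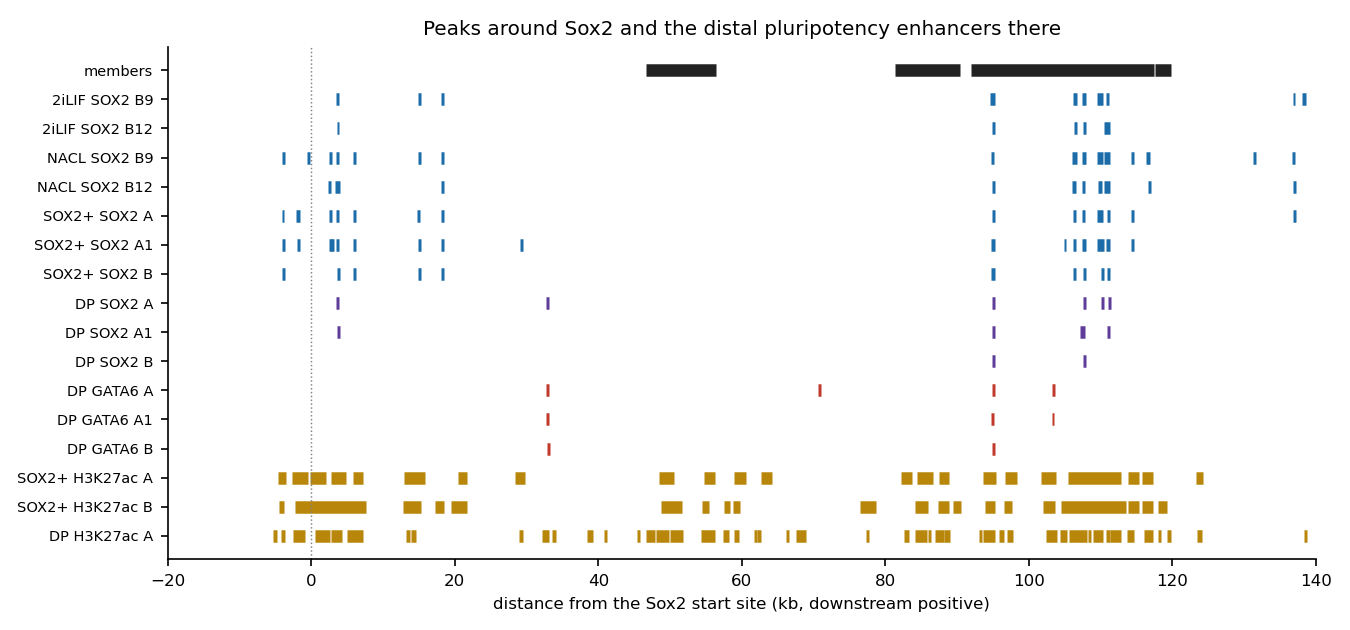
Peaks around Sox2, one row per library, against the distance from its start site in kb, with the members as black bars at the top. The member from 91.9 to 117.4 kb has SOX2 peaks in all 10 libraries, fewer in DP, and GATA6 peaks in the 3 DP libraries, while the 3 other members drawn have no SOX2 peak.

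Nanog, a homeobox factor that stabilizes pluripotency, had 1 member, 14916 bp from its start site. Its SOX2 peak stood at percentile 56.9 and 77.2 in 2iLIF B9 and B12, at 54.3 and 54.1 in NACL B9 and B12, and at 79.1, 71.1 and 84.3 in SOX2+ A, A1 and B. In DP it stood at 69.9 in A and 72.7 in A1, with no peak in B. All 7 pluripotent libraries and 2 of 3 DP libraries thus had SOX2 at this member. The widest of the 5 members of Prdm14, a repressor of methylation and differentiation genes in naive cells, lay at chr1:13073280-13088019. Its strongest SOX2 peak stood at percentile 99.2 and 98.2 in 2iLIF B9 and B12, at 99.9 and 98.9 in NACL B9 and B12, and at 91.3, 86.7 and 83.7 in SOX2+ A, A1 and B. No DP library had a SOX2 peak there, although both marks were called there in DP. Zfp42 (REX1), a marker of naive ESCs, had 1 member, at chr8:43320460-43329108. SOX2 stood there between percentile 61.9 in SOX2+ B and 92.9 in NACL B9, again with no peak in DP.

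SOX2 was present in at least 1 of the 10 libraries at 2915 of the 4880 members (59.7%, 95% Clopper-Pearson interval 58.3 to 61.1), compared with 54.9% of all 14647 enhancers. Intervals here cover counting error over regions only. The members split into many without SOX2 and a tail with SOX2 in nearly every library: 1965 had none, 621 had it in 1 library and 158 in all 10. SOX2 in all 10 libraries was found at 3.24% of members and 4.09% of all enhancers, so it was not more frequent among members. The number of separate SOX2 sites per member was 1 in 2032 cases, 2 or more in 883 and 4 or more in 68. The largest number, 9, was found in a member of 43679 bp beside Scn3a, a sodium channel gene. Width moved with binding: members without SOX2 had a median width of 4135 bp, those with SOX2 in 1 library 5060 bp, and those with SOX2 in all 10 libraries 10059 bp. The part of width in these numbers was not tested.

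**Figure D2:**
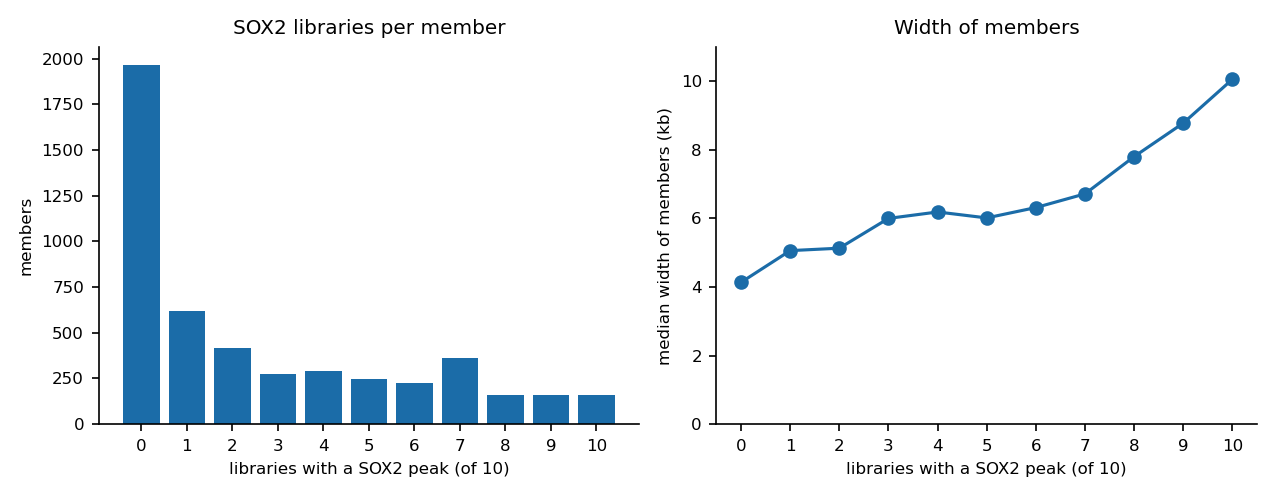
Left, the number of members by how many of the 10 SOX2 libraries had a peak in them, and right, their median width in kb. Members without SOX2 are the largest class (1965), and median width runs from 4135 bp without SOX2 to 10059 bp with SOX2 in all 10 libraries.

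Of the members with SOX2 in all 10 libraries, the 10 with the most SOX2 peaks lay nearest to Sox2, Sik1, Utp6, Tmem131, Ubtf, Stoml1, 1810013L24Rik, Aebp2, Scn3a and Il7. Aebp2 encodes a cofactor of Polycomb repressive complex 2, Sik1 a salt-inducible kinase and Ubtf a factor of ribosomal RNA transcription. All 10 lay between genes and had H3K27ac and H3K4me1 in both SOX2+ libraries and in DP. Of all members, 50.3% lay between genes. H3K27ac was in both SOX2+ libraries at 16.7% of all members and in DP at 53.0%, and H3K4me1 at 88.2% and 94.0%. The 10 were 10917 to 43679 bp wide, against a median of 5193 bp for all members, and the part of width was not tested. The member beside Stoml1, at chr9:58266337-58281354, was among the strongest sites of every library. Its SOX2 peak stood at percentile 99.6 and 99.4 in 2iLIF B9 and B12, at 99.8 and 99.9 in NACL B9 and B12, and at 99.8, 99.9 and 99.7 in SOX2+ A, A1 and B. In DP A, A1 and B it stood at 97.2, 98.7 and 96.3.

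The libraries differed in how many members they showed with SOX2, and also in their number of peaks. SOX2 peaks lay at 32.9% and 23.2% of members in 2iLIF B9 and B12, whose lists held 13177 and 8203 peaks. They lay at 55.5% and 37.5% in NACL B9 and B12, with 29623 and 17111 peaks. In SOX2+ A, A1 and B they lay at 33.2%, 34.2% and 23.7%, with 16819, 20609 and 10513 peaks. In DP A, A1 and B they lay at 9.57%, 10.1% and 3.73%, with 4859, 5320 and 1378 peaks. The DP libraries were below every other library, and they also had the fewest peaks. SOX2 in both NACL libraries and in no 2iLIF library was found at 437 members (8.95%, compared with 7.82% of all enhancers), and the opposite at 9 (0.184%, compared with 0.123%).

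Because the lists differ in length, the share of a library's own SOX2 peaks that lay at members was compared. It was 14.5% and 15.9% in 2iLIF B9 and B12, 12.4% and 13.3% in NACL B9 and B12, 12.2%, 10.6% and 13.1% in SOX2+ A, A1 and B, and 10.7%, 10.5% and 13.6% in DP A, A1 and B. NACL, SOX2+ and DP overlapped, and both 2iLIF libraries lay above all the others. DP (11.6% ± 1.72, SD, n = 3) differed from SOX2+ (11.9% ± 1.28, SD, n = 3) by -0.36 percentage points (two-sided exact permutation test, p = 0.9, adjusted p = 0.92 over the 7 tests made here; the smallest p that 3 against 3 libraries allow is 0.1). Leaving out 1 library moved this difference from -1.35 points (without DP B) to 0.21 (without DP A1 or without SOX2+ B), and its sign also turned without DP A (0.066). DP differed from the 7 pluripotent libraries (13.1% ± 1.72, SD) by -1.55 points (exact permutation p = 0.25, adjusted p = 0.35). Of those 7, 4 came from the media whose marks chose the members. SOX2+ differed from the 4 libraries of 2iLIF and NACL (14% ± 1.52, SD) by -2.09 points (exact permutation p = 0.114, adjusted p = 0.2; the smallest possible is 0.0571).

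When only the 1378 strongest peaks of each library were kept, which removes the difference in list length, DP separated from the pluripotent libraries, while 2iLIF and NACL overlapped. The share at members was then 20.6% and 20% in 2iLIF B9 and B12, 21.5% and 19.4% in NACL B9 and B12, 17.4%, 15.7% and 16.3% in SOX2+ A, A1 and B, and 10.4%, 11.4% and 13.6% in DP A, A1 and B. No DP library reached the lowest pluripotent one. DP then differed from SOX2+ by -4.67 points (exact permutation p = 0.1, the smallest possible, adjusted p = 0.117). SOX2+ differed from 2iLIF and NACL together by -3.88 points, without overlap (exact permutation p = 0.0571, the smallest possible, adjusted p = 0.1). The difference between DP and the pluripotent libraries was -6.89 points (exact permutation p = 0.0167, the smallest possible, adjusted p = 0.0389), while the adjusted p of this comparison ran from 0.0389 to 0.713 over its 18 alternatives. The DP list of library B has 1378 peaks in all, so this alternative keeps its weak peaks too.

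Against enhancers shared with nEnd, counted per Mb with all peaks kept, the order of the DP libraries was the opposite of that of the others. The number of SOX2 peaks per Mb of members was divided by that per Mb of the 774 common distal enhancers, as a log2 ratio. The ratio was 0.40 and 0.32 in 2iLIF B9 and B12, 0.38 and 0.33 in NACL B9 and B12, and 0.20, 0.12 and 0.23 in SOX2+ A, A1 and B. In DP A, A1 and B it was -0.66, -0.67 and -0.53. All pluripotent libraries thus had more SOX2 peaks per Mb at members than at common distal enhancers, and all DP libraries had fewer. DP (-0.62 ± 0.08, SD, n = 3) was 0.90 lower than the pluripotent libraries (0.28 ± 0.10, SD, n = 7), a difference of -0.90 (exact permutation p = 0.0167, the smallest possible, adjusted p = 0.0583), which misses the adjusted threshold of 0.05. With equal peak numbers the difference was -0.99 (exact permutation, adjusted p = 0.0389), and over its 18 alternatives the adjusted p ran from 0.0389 to 0.194. At equal peak numbers the ratio was 0.0068, -0.088 and -0.14 in SOX2+ A, A1 and B. It was -1.03, -0.92 and -0.53 in DP A, A1 and B, so ratios below 0 were not limited to DP there. Against SOX2+ cells alone (0.19 ± 0.06, SD, n = 3) the difference was -0.80 (exact permutation p = 0.1, the smallest possible, adjusted p = 0.2). Over all 10 libraries together, with all peaks kept, the ratio averaged 0.01 ± 0.44 (SD; exact sign flip p = 0.92, adjusted p = 0.92), a mean of opposite signs in DP and the other libraries. Counted per region, common distal enhancers had SOX2 more often than members in every library. Their shares ran from 9.43% in DP B to 65.9% in NACL B9, where members had 3.73% and 55.5%. Common distal enhancers were also wider (median 10703 bp against 5193 bp), and the part of width was not tested.

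Members held SOX2 more densely than the 2406 promoter-near pluripotency enhancers. The log2 ratio of peaks per Mb was above 0 in 10 of 10 libraries, from 0.28 in DP to 0.61 in 2iLIF, with a mean of 0.47 ± 0.13 (SD, n = 10; exact sign flip p = 0.00195, the smallest possible, adjusted p = 0.0137). The adjusted p of this ratio stayed between 0.0137 and 0.0273 over its 18 alternatives. Counted per region, the order was the reverse in 10 of 10 libraries, by 0.468 percentage points in DP B to 6.49 in SOX2+ A1. Their median width was 8739.5 bp, against 5193 bp for members, and the part of width in this order was not tested.

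**Figure D3:**
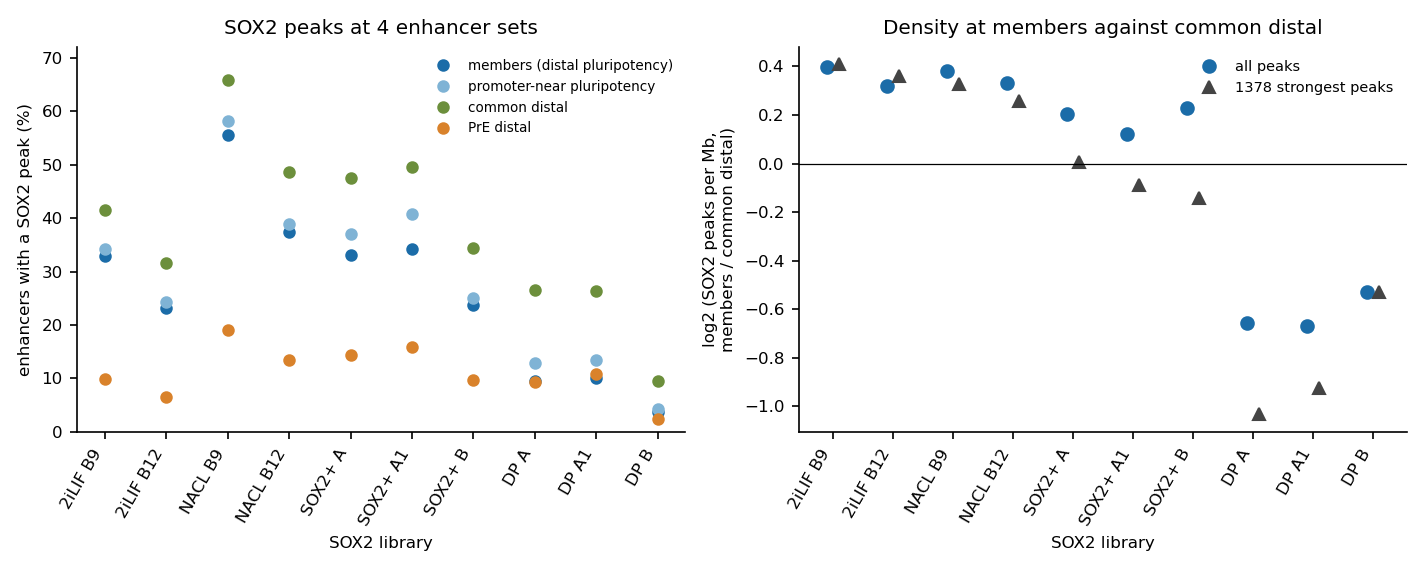
Left, the percentage of 4 enhancer sets with a SOX2 peak in each of the 10 libraries, and right, the log2 ratio of SOX2 peaks per Mb at members to that at common distal enhancers, with all peaks (circles) and with the 1378 strongest (triangles). The 3 DP libraries lie below the 7 others at members, and their log2 ratios lie between -0.53 and -0.67 with all peaks.

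Most members with SOX2 in DP also had SOX2 in a pluripotent library, as did most such enhancers of all sets. SOX2 in at least 2 DP libraries was found at 375 members (7.68%, compared with 11% of all enhancers), and 373 of these had SOX2 in a pluripotent library (99.5%, compared with 95.8% of all enhancers with SOX2 in at least 2 DP libraries). The other 2 lay nearest to Itga6, an integrin gene, and Sall1, a zinc finger gene, and both had GATA6 in 2 DP libraries. These 2 were named after their values were seen. SOX2 in any DP library and in no pluripotent library was found at 11 members (0.225%, compared with 1.11% of all enhancers). With the DP libraries A and A1 alone, without B and its few peaks, both had SOX2 at 365 members.

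Conversely, 772 members had SOX2 in all 7 pluripotent libraries (15.8%, compared with 14.5% of all enhancers). Of these, 312 had SOX2 in at least 2 DP libraries (40.4%, interval 36.9 to 44.0, compared with 54.3% of the 2129 such enhancers of all sets) and 318 had it in none (6.52% of members, compared with 4.22% of all enhancers). The 318 ranked lower in the pluripotent libraries than the 158 with SOX2 in all 3 DP libraries. The median percentile of their strongest peak was 74.5 against 93.4 in 2iLIF B9, 59.0 against 91.8 in 2iLIF B12, 90.4 against 97.2 in NACL B9 and 80.0 against 95.4 in NACL B12. In SOX2+ A, A1 and B it was 72.5 against 96.4, 74.2 against 97.0 and 54.2 against 94.0. The 158 thus had the higher median in each of the 7 libraries, and they were also wider (median 10059 bp against 6730 bp).

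The position of SOX2 within a member was close between sorted populations. Libraries of the same name were set side by side. No such share was computed over all enhancers, so the closeness is not shown to be particular to members. Of the SOX2 maxima of DP with a SOX2+ maximum in the same member, 92.8% of 498 in library A, 93.8% of 535 in A1 and 97.9% of 187 in B lay within 150 bp of it, with median distances of 21, 20 and 21 bp. Of the GATA6 maxima of DP with a SOX2 maximum of DP in the same member, 69.9% of 176 in A, 71.7% of 113 in A1 and 53.8% of 26 in B lay within 150 bp of it. Such a partner was present for only 176 of 410 GATA6 maxima in A, 113 of 195 in A1 and 26 of 80 in B. For the SOX2 maxima above it was present for 498 of 521, 535 of 555 and 187 of 187.

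In SOX2+ cells H3K4me1 was called at most members and H3K27ac at few. H3K4me1 lay at 89.6% and 92.9% of members in libraries A and B, and at 88.2% in both (4303 members), compared with 78.3% of all enhancers. All enhancers include PrE distal ones, with 36.2% and 44.6% in A and B. Members were below promoter-near pluripotency enhancers (95.1% and 97.3%) and common distal enhancers (97.3% and 98.6%). H3K27ac lay at 22.7% and 23.4% in A and B, and at 16.7% in both (816 members, interval 15.7 to 17.8), compared with 27% of all enhancers. Both marks in both libraries were found at 813 members (16.7%, compared with 26.5% of all enhancers), and H3K4me1 in both with H3K27ac in neither at 2878 (59.0%, compared with 41% of all enhancers). Neither mark was found in any SOX2+ library at 275 members (5.64%, compared with 13.8%). The H3K27ac lists of SOX2+ held 13514 and 14722 peaks, while those of 2iLIF and NACL held at least 210904. The H3K4me1 lists of SOX2+ held 58085 and 78354 peaks, and those of 2iLIF and NACL 24700 to 52599. The part of list length in these shares was not tested. Of the 816 members with H3K27ac in both SOX2+ libraries 813 had H3K4me1 in both as well, and 2 had it in neither, nearest to Zfp992 and Armc8, named after their values were seen.

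In DP, with 1 library of each mark, H3K4me1 lay at 94.0% of members (compared with 92.3% of all enhancers) and H3K27ac at 53.0% (2588 members, compared with 64.5% of all enhancers). The DP H3K27ac list held 76260 peaks. With the 13514 strongest peaks of each H3K27ac library, an alternative chosen after the data were seen, the members with H3K27ac were 22.7% and 21.9% in SOX2+ A and B and 17.5% in DP. The larger share in DP therefore did not hold at equal list length. The DP H3K4me1 list held 130749 peaks, and with the 58085 strongest of each library H3K4me1 lay at 89.6% and 89.2% of members in SOX2+ A and B and at 81.4% in DP, so that order turned as well. At PrE distal enhancers the same alternative for H3K27ac gave 6.01% and 5.97% in SOX2+ and 9.98% in DP, the opposite order to members. With 1 DP library these are values without a test. Of the 816 members with H3K27ac in both SOX2+ libraries, 776 had it in DP (95.1%, compared with 98.5% of all such enhancers).

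**Figure D4:**
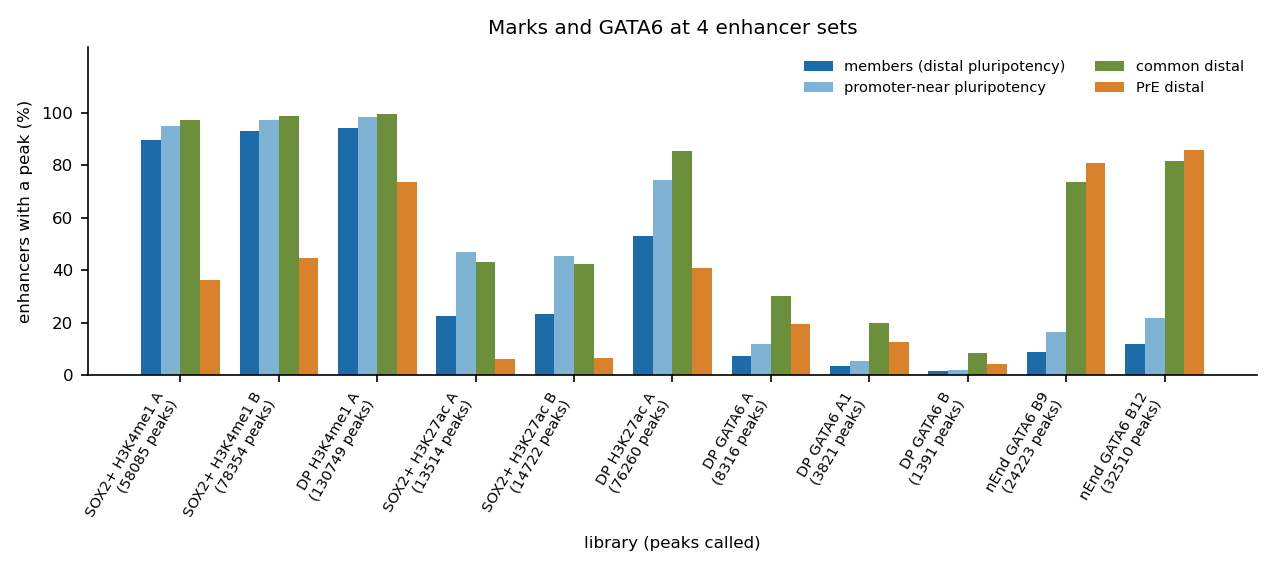
Percentage of 4 enhancer sets with a peak in each KOSR mark library and each GATA6 library, with the number of peaks of the library under its name. Members have H3K4me1 in 89.6% to 94.0% of cases in KOSR, H3K27ac in 22.7% and 23.4% in SOX2+, and GATA6 in 1.5% to 7.30% in DP.

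Members with SOX2 in more of the 4 libraries of 2iLIF and NACL had H3K27ac in SOX2+ more often, and were also wider. H3K27ac in both SOX2+ libraries was found at 8.82% of the 2097 members without SOX2 in these libraries and at 30.1% of the 1029 with SOX2 in all 4. Their median widths were 4172 bp and 7436 bp. Among members under 3978 bp the share was 2.50% (interval 1.61 to 3.69) without SOX2, 4.96% with SOX2 in 1 library, 7.32% (3.84 to 12.4) in 2, 5.26% in 3 and 3.05% (1 to 6.97) in all 4. Among members from 3978 to 6896 bp it was 8.95% (6.96 to 11.3) without SOX2, 11.8% with SOX2 in 1 library, 15.4% in 2, 12.3% in 3 and 15.1% (11.2 to 19.6) in all 4. Among members over 6896 bp it was 23% (19.1 to 27.4), 24.5%, 35.1%, 42.4% and 45.9% (41.8 to 50.1). Width still differed within these wide members, with a median of 8911 bp without SOX2 and 10792 bp with SOX2 in all 4. The shares of the narrow and middle members thus did not run in one direction with the number of libraries. SOX2 in at least 2 DP libraries was found at 20.1% of the narrow and 37.5% of the wide members with SOX2 in all 4 libraries, and at 0.312% and 0% of those with none (0 of 421, which allows a share of up to 0.713%, taken as 3 counts of the total). Members are not replicates, and these shares are descriptions.

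**Figure D5:**
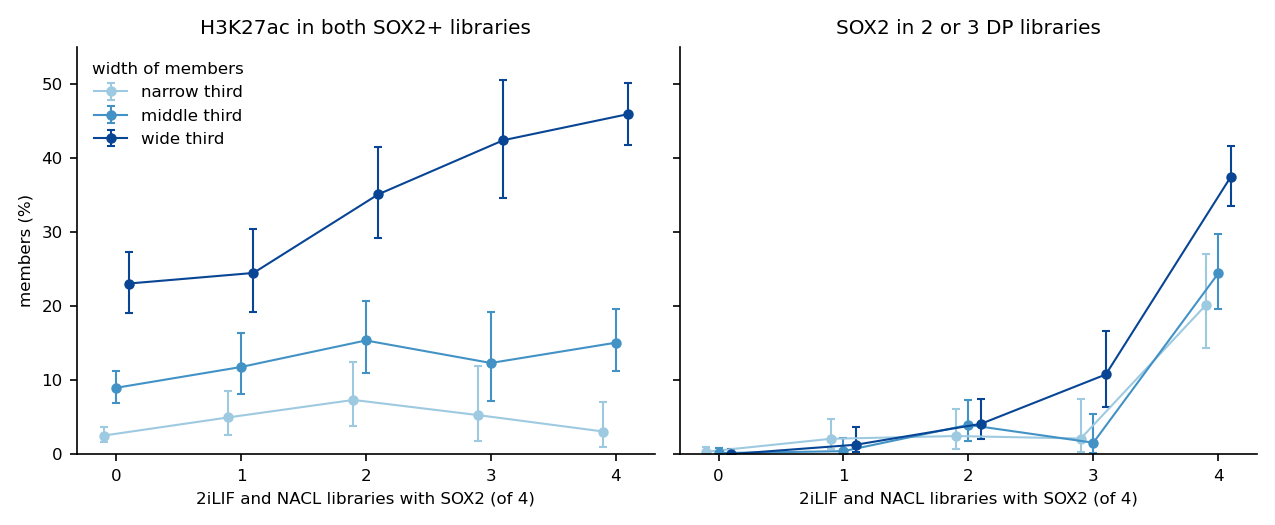
Percentage of members with H3K27ac in both SOX2+ libraries (left) and with SOX2 in at least 2 DP libraries (right), by the number of 2iLIF and NACL libraries with SOX2, for members under 3978 bp, from 3978 to 6896 bp, and over 6896 bp. Points carry 95% Clopper-Pearson intervals, and a share of 0 the limit of 3 counts of the total. In the widest members H3K27ac is at 23% without SOX2 and 45.9% with SOX2 in all 4 libraries, while SOX2 in DP is highest at each width where all 4 libraries have SOX2.

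GATA6 was sparse at the members. In DP A, A1 and B it lay at 7.30%, 3.57% and 1.5% of members, with 8316, 3821 and 1391 peaks called, and at 30.4%, 19.8% and 8.66% of common distal enhancers. Promoter-near pluripotency enhancers, which also exclude nEnd enhancers, had it at 11.8%, 5.44% and 2.04%. A GATA6 peak in at least 1 DP library was found at 371 members (7.60%, interval 6.87 to 8.38), compared with 18% of all enhancers, and in at least 2 at 167 (3.42%, compared with 9.32%). Without library A, whose label carries a suffix of unknown meaning, it was found at 3.73% of members. In nEnd B9 and B12 GATA6 lay at 8.77% and 12.0% of members, and in both at 348 (7.13%, compared with 40.3% of all enhancers). Because nEnd enhancers were left out of the set by its rule, the low nEnd values are a description. The rule did not use DP, but common and all enhancers include nEnd enhancers, which it left out of the members.

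Of the 167 members with GATA6 in at least 2 DP libraries, 79 had SOX2 in at least 2 (47.3%, interval 39.5 to 55.2), near the 48.1% of all enhancers with such GATA6. Of the 375 members with SOX2 in at least 2 DP libraries, the same 79 had GATA6 (21.1%, interval 17 to 25.5), below the 40.6% of all enhancers with such SOX2. Of the other 4505 members 88 had GATA6 (1.95%, interval 1.57 to 2.40), compared with 5.44% of all enhancers of that kind. Of the 318 members with SOX2 in all 7 pluripotent and no DP library, 3 had it (0.943%, compared with 4.21% of all such enhancers), and these lay nearest to Plpp3, Rec114 and Trpc7, named after their values were seen. GATA6 and SOX2 together, each in at least 2 DP libraries, thus made up 1.62% of members, compared with 4.48% of all enhancers. H3K27ac in DP was called at 151 of the 167 members with GATA6 in at least 2 DP libraries (90.4%, compared with 89.4% of all such enhancers) and at 50.2% of the members without DP GATA6 (compared with 59.4%). The members with SOX2 in at least 2 DP libraries had a median width of 8879 bp against 5193 bp for all members, and the part of width in these overlaps was not tested.

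GATA6 in all 3 DP libraries was found at 65 members (1.33%, compared with 3.65% of all enhancers). Of these, 18 had SOX2 in all 10 libraries (27.7%, compared with 22.3% of all such enhancers), and the first 10 of the 18 in genome order lay nearest to A830018L16Rik, Nckap5, Dars, Baz2b, Ift52, Sox2, Gm13128, Usp46, Ppp1r9a and Cul5. The member beside Usp46, at chr5:73884536-73895635, had one of the strongest SOX2 peaks of every library. The SOX2 peak there stood at percentile 99.8 in 2iLIF B9 and B12, at 99.9 or higher in NACL B9 and B12 and in SOX2+ A, A1 and B, and at 99.9, 99.9 and 99.7 in DP A, A1 and B. Its GATA6 peak stood at 82.1, 95 and 66.6 in DP A, A1 and B. At the member beside Cul5, a cullin ubiquitin ligase gene, both factors had a peak in each library of DP. SOX2 stood at percentile 81.4 and 63.9 in 2iLIF B9 and B12, at 82.4 and 72.8 in NACL B9 and B12, and at 62.5, 79.5 and 56.3 in SOX2+ A, A1 and B. It stood at 97.4, 97.7 and 34.5 in DP A, A1 and B, whose lists differ in length. GATA6 stood there at 97.3, 94.9 and 81.8 in DP A, A1 and B and at 79.2 and 91.3 in nEnd B9 and B12.

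The strings at the summits of the peaks followed the antibody. Around the strongest SOX2 maximum, 56.2% of the 2910 members with a SOX2 maximum inside them (interval 54.4 to 58.0) had CATTGT or CTTTGT in the window of 150 bp centred on it, compared with 58.7% of the 35759 SOX2 sites elsewhere in the genome. In a window of 300 bp the share of members was 68.1%. The shares that follow are for windows of 150 bp. Around the strongest H3K27ac maximum of the members with SOX2 the share was 27.9% (26.3 to 29.6), and around that of the members without SOX2 20.7% (18.9 to 22.5). The octamer was rarer, in 5.77% of the SOX2 windows of members (4.95 to 6.68) and 4.38% of SOX2 sites elsewhere, and the composite of SOX and OCT, which overlaps a SOX string, was found in 0.412% and 0.313%. TCAAGGTCA stood in 1.96% of the SOX2 windows of members and 1.45% of SOX2 sites elsewhere, and CCACACCC in 3.81% and 2.76%. Around the strongest DP GATA6 maximum, AGATAA stood in 63.4% of 369 members (58.3 to 68.3), in 65.5% of DP GATA6 sites elsewhere and in 73.2% of 462 PrE distal enhancers. The SOX2 windows of members held it in 8.04% (7.08 to 9.09), below the 9.97% of SOX2 sites elsewhere. Of the 312 members with SOX2 in all 7 pluripotent and at least 2 DP libraries, 12.8% (9.32 to 17) had AGATAA around the SOX2 maximum. The 9.97% of SOX2 sites elsewhere lies inside this interval. Of the 318 members with all 7 and no DP library, 4.40% (2.43 to 7.28) had AGATAA. A SOX string was found in 68.6% of the 312 and 66.7% of the 318. Maxima were ranked over all 10 libraries, so windows of the 312 could be centred on a DP maximum and those of the 318 could not. A match is a string of letters and does not show that a factor bound it.

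By the nearest protein-coding start site, members belonged to 2927 of 21911 genes (13.4%), and 408 genes (1.86%) had 3 or more, together 1776 members. The nearest gene need not be the target of an enhancer. The genes with the most members were Magi1 with 17, Msi2 with 13, Ptprg with 12, and Myc, Ror2 and Sipa1l2 with 11 each. Arl15, Auts2, Epb41l4a and Gli2 followed with 10 each. Magi1 encodes a scaffold of cell junctions, Msi2 an RNA-binding protein of stem cells, Ptprg a receptor phosphatase, Ror2 a Wnt receptor and Gli2 the effector of Hedgehog signaling. Among these 10 genes the members with SOX2 ran from 2 of 11 at Sipa1l2 to 8 of 10 at Auts2, a gene of chromatin and neural development, compared with 59.7% of all members. Those with SOX2 in DP ran from none, at Gli2 among others, to 4 of 10 at Auts2, compared with 12.3% of all members.

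Of 11 core pluripotency factors, 5 had a member (45.5%, compared with 13.4% of all genes): Sox2 with 6, Zfp281 with 5, and Nanog, Sall4 and Zfp42 with 1 each. The lists were drawn up with results of these data known, and their counts are descriptions. Sox2 and Zfp281 alone had 3 or more. Of the 14 members 9 had H3K27ac in both SOX2+ libraries (64.3%, compared with 16.7% of all members), and 3 had SOX2 in a DP library, at Sox2, Nanog and Zfp281. Of 16 naive factors, 8 had a member (50%): Prdm14 and Nr5a2 with 5, Esrrb and Tbx3 with 3, Klf5, Dppa3 and Gbx2 with 2, and Nr0b1 with 1. Of their 23 members 14 had SOX2 in some library (60.9%, near the 59.7% of all members) and none had it in DP, which allows a share of up to 13% (3 counts of the total), compared with 12.3% of all members, so a difference was not detectable with this number. H3K27ac in both SOX2+ libraries was called at 6 of the 23. It was called at all 3 members of Tbx3, a T-box factor of naive cells, and at none of those of Esrrb, Klf5, Gbx2, Dppa3 or Nr0b1.

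Esrrb, an orphan nuclear receptor of naive cells, had its 3 members within the gene, 2 with their middle in an intron and 1 in an exon. SOX2 lay at 1 of them, in 3 libraries, at percentile 40.4 in 2iLIF B9, 52.8 in NACL B9 and 1.72 in NACL B12. The other 2 each had GATA6 in 1 DP library. At Gbx2, a homeobox gene downstream of LIF, both members lay in an intron of Agap1. The one with 2 octamers under its SOX2 peak stood at percentile 9.54 and 9.13 in 2iLIF B9 and B12, at 81.2 and 47.4 in NACL B9 and B12, and at 77.8, 74.8 and 34.7 in SOX2+ A, A1 and B. It had no SOX2 in DP. Sall4, a zinc finger factor, also had SOX2 in NACL (percentiles 81.0 and 84.7) and SOX2+ (89.8, 82.2 and 76.0) at its only member, with no peak in 2iLIF or DP. Klf5, a factor of self-renewal, had SOX2 at the member 208682 bp from it at percentile 93.4 and 18.1 in 2iLIF B9 and B12, 97.7 and 59.4 in NACL B9 and B12, and 49.3, 33.5 and 54.9 in SOX2+ A, A1 and B. All 7 pluripotent libraries had SOX2 at this member.

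Of 14 formative and primed epiblast genes, 6 had a member (42.9%, compared with 13.4% of all genes), led by Sox4 with 5, Cdh2 with 4 and Foxd3 with 3. Among their 16 members, 14 had SOX2 (87.5%, compared with 59.7% of all members) and 5 had it in a DP library (31.2%, compared with 12.3%), at Foxd3 (2 members), Cdh2 (2) and Lef1 (1). Foxd3 is a forkhead factor of the epiblast and Cdh2 is N-cadherin. Of 12 chromatin regulators of pluripotent cells, counted with the Myc genes, 6 had a member (50%), led by Myc with 11, Jarid2 with 9 and Mycn with 6. Their 30 members had SOX2 in 63.3% of cases, SOX2 in DP in 10% and H3K27ac in both SOX2+ libraries in 20%, near the 59.7%, 12.3% and 16.7% of all members. The members of Jarid2, a subunit of Polycomb repressive complex 2, had SOX2 at 8 of 9 and DP SOX2 at 3, while those of Myc had SOX2 at 4 of 11 and H3K27ac in both SOX2+ libraries at none.

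Genes of 4 signaling pathways were counted in the same way, beside 13.4% of all genes with a member, with no test between pathways. For the FGF and ERK pathway 7 of 11 genes had a member (63.6%), led by Etv5 with 4, an ERK-induced ETS factor, and including Fgf4, its main ligand in ESCs, and the feedback inhibitors Dusp6, Spry4, Spred1 and Spred2. For the Nodal and BMP pathway 7 of 14 did (50%), among them Nodal itself, its co-receptor gene Tdgf1, its inhibitors Lefty1 and Lefty2, and Smad7 with 5. For the Wnt pathway 4 of 12 did (33.3%): Axin2 with 4, Sp5 and Fzd7 with 3 and Lgr4 with 1. None of the 4 Axin2 members, near a feedback inhibitor of Wnt signaling, had SOX2 in any library (59.7% of all members did) or H3K4me1 in both SOX2+ libraries (88.2%). All 4 had H3K4me1 in the longer DP list (94.0%). For the LIF and STAT3 pathway 1 of 11 did (9.09%), Pim1. A DP SOX2 peak, found at 12.3% of all members, was found at 1 of the 14 FGF and ERK members, beside Dusp6, at 0 of the 11 Nodal and BMP members and at 0 of the 11 Wnt members, which in each of the last pair allows a share of up to 27.3% (3 counts of the total).

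Genes of other lineages had members as well, again beside 13.4% of all genes and with no test. Of 20 PrE genes 5 had one (25%): Dab2, Lamc1 and Hhex with 2 each, and Gata6 and Foxa2 with 1. The Gata6 member, 69796 bp from the start site, had SOX2 in 7 libraries, DP among them, and H3K27ac in both SOX2+ libraries. Of 10 trophoblast regulators 2 had a member (20%), Tfap2c with 4 and Gata3 with 2, and of 14 neural and mesoderm regulators 3 did (21.4%), Sox1 with 3 and Gsc and Nes with 1. The member of Tfap2c with the most SOX2 libraries had SOX2 in all 10. SOX2 in any library was found at 75% of the 8 PrE members, 83.3% of the 6 trophoblast members and 80% of the 5 neural and mesoderm members (59.7% of all members). SOX2 in DP was found at 25%, 33.3% and 20% of them (12.3% of all members).

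Many members carried nEnd marks, which the rule used. H3K4me1 lay at 37.6% and 16.5% of members in the 2 nEnd libraries, whose lists held 42816 and 18627 peaks, and H3K27ac at 12.3% in B12 and 9.67% in B9. Of the 751 members with H3K4me1 in both nEnd libraries, 265 also had H3K27ac in at least 1 (35.3%). Neither mark was called in any nEnd library at 2832 members (58.0%). The others had a mark called in nEnd without meeting the rule of both libraries for each mark. Of the 348 members with GATA6 in both nEnd libraries, 84.2% had H3K4me1 in at least 1 nEnd library, against 32.2% of those with no nEnd GATA6. The same shares over all enhancers were not computed.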

How the data were processed

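CUT&RUN for H3K27ac, H3K4me1, SOX2 and GATA6 was analysed in 33 libraries assigned to groups from their labels. The SOX2 library NACL B12 has no medium in its source name and was placed by its title alone. Another 2 KOSR libraries had labels that named different populations and entered no comparison. The deposited peak lists hold the total and maximum signal of each peak as coverage on the scale of its own library, so only ranks within a library were used. Per the submitters' processing notes, the authors used cutadapt 1.18, Bowtie2 2.3.4.1, SAMtools 1.9, Picard 2.9.1, bedtools 2.27.1, deepTools 3.2.0 and SEACR (version not given in the sources used here) on GRCm38/mm10. The SEACR mode in the file names, relaxed for marks and stringent for factors, is the opposite of that in the study's methods. IgG controls were not used here, and the read depth is unknown.

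Enhancers and members were rebuilt with Python 3.11.15, NumPy 2.4.6, pandas 2.3.3 and SciPy 1.17.1 and placed against GENCODE M21. Groups of SOX2 libraries were compared by two-sided exact permutation tests and ratios within libraries by exact sign flip tests, with Benjamini-Hochberg adjustment over 7 tests and a threshold of 0.05. No source says that the replicates A, A1 and B are separate cultures, so p-values measure the spread between these libraries, which may be technical. The steps were tested on simulated data. Genes named are those of 11 lists with a member, those with most first, the 10 genes with the most members, up to 10 members with SOX2 in all 10 libraries, by number of SOX2 peaks, and up to 10 with GATA6 in all 3 DP libraries, by number of SOX2 libraries. The members and lists were chosen with earlier results of these data known. Alternatives covered the mark libraries and peaks, the start sites and their distance, the overlap, the number of SOX2 peaks and each replicate left out. The sequence of 1 further window is not reported here.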

Additional observations from a re-analysis of the deposited data

Results flagged for a closer look

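The log2 ratio of SOX2 peaks per Mb at members to that at common distal enhancers differed between DP and the pluripotent libraries by -0.90 (exact permutation p = 0.0167, the smallest possible, adjusted p = 0.0583). It was below 0 in 3 of 3 DP libraries and above 0 in 7 of 7 pluripotent libraries, and this opposite direction is why it is listed here. The DP lists held 1378 to 5320 SOX2 peaks and the others 8203 to 29623. With the 1378 strongest peaks of each library the difference was -0.99 (exact permutation, adjusted p = 0.0389). The ratio was then 0.0068, -0.088 and -0.14 in SOX2+ A, A1 and B, so values below 0 were not limited to DP at equal list length.

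The 2 KOSR libraries without a group had peaks at members, outside every comparison. The H3K4me1 library, with 94492 peaks, had a peak at 92.3% of members and at 60.1% of PrE distal enhancers. The H3K27ac library, with 19185 peaks, had a peak at 26.3% of members and at 12.4% of PrE distal enhancers. Their titles and source names give different populations, and no value here was used to place them.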

How the results depend on the processing

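Of 246 values under alternatives, 195 kept their direction and side of the threshold or moved by less than their error, 2 passed the threshold that the main value missed, 36 moved further and 13 changed sign. The higher density at members than at promoter-near enhancers passed in all 18 of its alternatives. With equal numbers of SOX2 peaks the differences between DP and the pluripotent libraries were -6.89 points for the share and -0.99 for the log2 ratio, both now called, and the ratio to common distal enhancers over all libraries was -0.14. That ratio, 0.01 with all peaks, was also negative with the stronger 50% of mark peaks (-0.086), with protein-coding start sites only (-0.057) and without 1 library (-0.030 without 2iLIF B9, -0.021 without 2iLIF B12, -0.028 without NACL B9, -0.022 without NACL B12, -0.0080 without SOX2+ A and -0.011 without SOX2+ B). The DP minus SOX2+ share was 0.29 points with the stronger 50% of mark peaks, 0.21 without SOX2+ B, 0.066 without DP A and 0.21 without DP A1. None of these was called, and the cause was not tested.

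A peak in either mark library gave 10717 members, of which 8.79% had both marks in SOX2+, 76.1% H3K4me1, 8.86% H3K27ac, 47.5% SOX2 in any library and 4.92% DP GATA6. The stronger 50% of mark peaks gave 2459 members, with 86.3% H3K4me1, 15.7% H3K27ac, 68.2% SOX2 and 11.5% DP GATA6. A distance of 5 kb gave 62.4% with SOX2, and protein-coding start sites only gave 18.3% with both marks and 18.4% with H3K27ac. Alternatives chosen after seeing the data gave 49.7% with SOX2 without NACL B9, 3.73% with GATA6 in DP A1 or B, 17.5% with DP H3K27ac and 81.4% with DP H3K4me1 at equal peak numbers, and 68.1% of SOX2 windows with a SOX string in 300 bp.

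Leaving out 1 mark library at a time, the number of members ran from 4647 (without nEnd H3K4me1 B9-2) to 6250 (without NACL H3K4me1 B12), the share with both marks from 14.5% to 23.3%, with H3K4me1 from 84.2% to 92.9%, with H3K27ac from 14.6% to 23.4%, with SOX2 from 56.3% to 60.2% and with DP GATA6 from 6.91% to 7.73%. The high ends for H3K27ac and both marks came without a SOX2+ H3K27ac library, when a peak in 1 library was enough. Leaving out 1 SOX2 library at a time, the DP minus SOX2+ share ran from -1.35 to 0.21 points, the DP minus pluripotent share from -2.54 (without DP B) to -0.98 (without DP A1), the SOX2+ minus naive share from -2.66 to -1.40, the DP minus SOX2+ log2 ratio from -0.85 to -0.78, the DP minus pluripotent log2 ratio from -0.95 to -0.88, the ratio to promoter-near enhancers from 0.46 to 0.49 and that to common distal enhancers from -0.030 to 0.089.

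With the experiment name (A, A1, B) as a replicate block, the paired difference of DP from SOX2+ was -0.36 points for the share (exact sign flip p = 0.75) and -0.80 for the log2 ratio (p = 0.25, the smallest possible). SOX2 deviations of same-named libraries over members correlated at 0.00021 for A, -0.0049 for A1 and -0.027 for B, and the names were not treated as pairs. The deviations of the share and of the log2 ratio, with 1 value per library, correlated at 0.82 and 0.74 over the 3 names, too few for a test. Read depth was unknown, and a member without a peak in the DP libraries may hold SOX2 below what those lists show.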
